A study of Arabidopsis thaliana with 4 samples.

Results

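The change of the polysome ratio by dehydration was followed in Arabidopsis thaliana. It is the log2 ratio of polysomal to non-polysomal signal in dehydrated material minus the same ratio in material that was not stressed. A value was formed for each of 22746 probe sets, which are all 22810 on the Affymetrix ATH1 array but for 64 control probe sets, and all 4 arrays of the series entered it. Of these probe sets 11373 were called measured, meaning that the mean of their 4 log2 signals reached 7.74, the median of the 22746. The measured probe sets stood for 5979 named loci, and the brightest probe set was used where a locus had several.

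A messenger RNA that is being translated carries several ribosomes at once and sediments as a polysome. One that is stored, repressed or waiting to be translated is free or bound to a single ribosome, and it stays in the lighter, non-polysomal part of a sucrose gradient. Loss of water generally lowers protein synthesis in plants, and transcripts that encode protective proteins, among them the hydrophilic late embryogenesis abundant (LEA) proteins and dehydrins, are known to be made in quantity at the same time. A ratio of the fractions compares how a transcript divides between them, and its change between conditions compares that division and not the amount of the transcript.

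Each of the 4 groups had 1 array. They were non-polysomal RNA (free, or on 1 ribosome) without stress, polysomal RNA (on more ribosomes) without stress, and the same fractions under dehydration stress. No genotype, tissue, age or duration of dehydration is given in the labels, and nothing says how many plants were pooled. With 1 array a group no test could be made, no standard deviation between replicates exists, and the number of arrays limits the precision. Every gene is therefore named by the size of its value. The tissue could not be checked with the marker lists, because none of the 7 green tissue markers and none of the 7 seed storage markers was on a probe set with a name, while 3 of 5 root markers were named and 0 of them measured. Nuclear photosynthesis genes were bright on all 4 arrays, with signals of 19238 to 23857 for RCA and 7819 to 18453 for PSBY, but the organ taken is not known.

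The median signal of the arrays ran from 186 to 250, and 0.0176% to 0.211% of the measured probe sets lay under the lower limit placed on signals, 69.9. The ratio of 3' to 5' signal of actin was 1.97 to 2.58 over the arrays. The experiment records put the unstressed pair of arrays in 1 hybridization batch and the dehydration pair in a different one, so that dehydration and batch cannot be told apart in any value below. All arrays were scaled to the same mean signal. A shift of all transcripts together out of polysomes is removed by such scaling, and every change is relative to the other transcripts on the arrays. For 47 loci a second measured probe set gave the change again. The SD of the difference between the probe sets of a locus was 0.598 on the log2 scale, against an SD of 0.505 over all 11373 changes, and the sign was shared in 23 of 47 loci. Small changes of single loci were thus not resolved, and only 1 of the 47 loci had a 2-fold change in its brightest probe set, where the other probe set had the same sign.

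Under dehydration the polysome ratio was at least 2-fold higher for 318 measured probe sets (2.8%) and at least 2-fold lower for 184 (1.62%). Over named loci the counts were 168 (2.81%) and 107 (1.79%). The members just inside the higher threshold and just outside it were AT5G64600 at 1.0004 and AT5G23750 at 0.996, and at the lower threshold AT1G25260 at -1.0003 and CHIL at -0.9997. The sides differed in reach. A change of 4-fold or more was seen for 31 probe sets on the high side and 3 on the low side, and one of 8-fold or more for 15 and 0. Of the 3, AT3G07010 was above the limit on every array. AT1G04040 is at least that large with the limit used, but was at -1.10 at the smallest over the alternative settings. DI21 passed 4-fold only because its unstressed polysomal signal was raised to the limit, and was at -1.94 with the limit at percentile 10. At 1.5-fold the sides held 1264 and 1020 probe sets. The measured changes ran from -2.48 to 5.21 on the log2 scale with a median of 0.013, and 50.5% of the named loci were above 0 and 49.5% below.

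With equal trimmed means the polysomal side carried more of the change than the non-polysomal side. The split by side was not made under another scaling. The median effect of dehydration over named loci was -0.012 in polysomal and -0.013 in non-polysomal RNA. It was 0.045 and 0.157 with equal medians, and -0.080 and 0.293 with equal signal of the hybridization controls. RNA was taken in bulk, so that a loss of cells of a type and a loss of RNA in each cell cannot be told apart in these signals. Of the 318 probe sets on the high side, 114 had a polysomal signal at least 2-fold higher under dehydration with a non-polysomal signal inside 2-fold, and 33 had a non-polysomal signal at least 2-fold lower with a level polysomal one. In 42 both fractions were 2-fold higher, in 4 both were 2-fold lower, and in 125 neither reached 2-fold. The polysomal signal moved farther than the non-polysomal one in 221 of them, 69.5%, against 54.5% of all measured probe sets. Of the 184 on the low side, 56 were lower in polysomal RNA alone, 27 were higher in non-polysomal RNA alone, 21 were lower in both and 79 were within 2-fold in each. Only 1 was 2-fold higher in both. No probe set had a 2-fold change in opposite directions in the fractions. For comparison, 6.36% of measured probe sets were 2-fold higher and 5.58% 2-fold lower in polysomal RNA, and 4.32% and 4.56% in non-polysomal RNA. Over named loci these shares were 5.92% and 4.85% in polysomal and 3.7% and 3.91% in non-polysomal RNA.

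**Figure D1:**
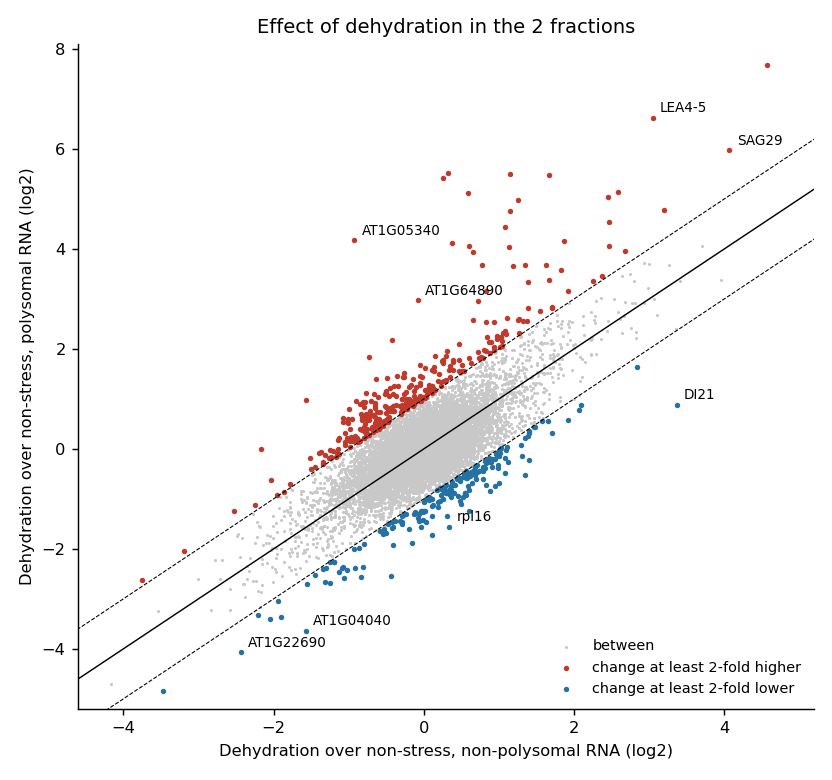
Each point is a measured probe set, placed by its log2 difference of dehydration over non-stress in non-polysomal RNA (horizontal axis) and in polysomal RNA (vertical axis), 1 array per group. The solid line marks no change of ratio and the dashed lines 2-fold, and 318 points lie above the upper dashed line and 184 below the lower one.

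Transcripts also crossed from one class to another. Without stress 1348 measured probe sets were at least 2-fold lower in polysomal than in non-polysomal RNA, and 845 of them (62.7%) were still so under dehydration, 488 (36.2%) were within 2-fold and 15 (1.11%) were at least 2-fold higher in polysomal RNA. Of 973 that were 2-fold higher in polysomal RNA without stress, 569 (58.5%) stayed there, 404 (41.5%) came within 2-fold and 0 went to 2-fold lower. The 9052 probe sets within 2-fold without stress gave 478 to the polysome-poor class and 446 to the polysome-rich class. Of the 15 complete crossings from poor to rich 10 had a named locus, and those with the widest change belonged to the LEA and lipid-transfer families.

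AT3G53980 belongs to the lipid-transfer protein family, small cysteine-rich proteins that are secreted. Its signals were 402 (non-polysomal) and 34.9 (polysomal) without stress, and 482 and 3011 under dehydration. Only the polysomal array of dehydrated material was high, and the non-polysomal signal was nearly level. The change was at least 5.17 on the log2 scale, or 35.9-fold, since the unstressed polysomal signal lay under the limit.

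AT1G05340 encodes a protein with a cysteine-rich transmembrane module and showed the largest change among the named loci whose signals were above the limit on all 4 arrays, 5.10. Its signals were 1715 (non-polysomal) and 96.6 (polysomal) without stress, and 903 and 1742 under dehydration. In this locus the fractions moved in opposite directions, the non-polysomal signal lower by less than 2-fold and the polysomal signal 18-fold higher.

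The LEA genes AT3G02480, AT3G17520 and LEA4-5 had their lowest signal on the unstressed polysomal array, in each case under the limit. For AT3G02480 the signals were 308 (non-polysomal) and 7.60 (polysomal) without stress, and 465 and 2431 under dehydration, a change of at least 4.53. For AT3G17520 they were 140.3 (non-polysomal) and 43.2 (polysomal) without stress, and 311 and 1891 under dehydration, a change of at least 3.61. LEA4-5, whose protein protects other proteins and membranes in drying tissue, went from 352 to 2910.1 in non-polysomal and from 63 to 6895 in polysomal RNA. Its non-polysomal RNA was thus already 8.26-fold higher, and the ratio still changed by at least 3.58.

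Among the 8 measured loci of the LEA list outside the dehydrins, 3 were 2-fold higher and 1, DI21, was 2-fold lower, with 5 above and 3 below 0 and a median of 0.37. The shares over named loci were 2.81% and 1.79%, and with hybridization control scaling the LEA counts were 3 and 2. The cold-regulated chloroplast LEA genes COR15A and COR15B had values of 0.33 and 0.42, and AT2G44060 had -0.72. DI21, a drought-induced LEA gene, had the lowest value of the list. Its signals were 226 (non-polysomal) and 48.2 (polysomal) without stress, and 2332 and 129 under dehydration, so that the non-polysomal array of dehydrated material was the high one. Its change was -2.48 with the unstressed polysomal signal raised to the limit, and a lower true signal there would make it smaller in size.

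All 3 measured dehydrins had a value above 0, but under hybridization control scaling AT1G54410 was at -0.13, and with no filter on signal 3 of 6 dehydrins were above and 2 below 0, with a median of 0.12. LTI30 (XERO2), a dehydrin of cold and drought, had signals of 455 (non-polysomal) and 240.3 (polysomal) without stress, and 997 and 3946 under dehydration and a change of 2.91. COR47 had signals of 978 (non-polysomal) and 2553 (polysomal) without stress, and 2668 and 11504 under dehydration, a change of 0.72. AT1G54410 had signals of 2115 (non-polysomal) and 7771 (polysomal) without stress, and 2543 and 11067 under dehydration, a change of 0.24. LTI30 alone was past 2-fold, with a ratio of -0.92 without stress and 1.99 under dehydration.

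The lipid-transfer family had 13 measured loci, of which 6 were 2-fold higher, 0 were 2-fold lower, and 8 lay above and 5 below 0, with a median of 0.38. Of all named loci 2.81% were 2-fold higher and 1.79% 2-fold lower. Under hybridization control scaling 4 of the family were 2-fold higher and 1 was 2-fold lower. With no filter 7 of 35 were 2-fold higher and 0 2-fold lower, with a median of 0.17. Besides AT3G53980 the 6 included AT4G33550 with signals of 208 (non-polysomal) and 99.7 (polysomal) without stress, and 356 and 1285 under dehydration and a change of 2.91. AT2G37870 went from 315 to 1743 in non-polysomal and from 180.0 to 4181 in polysomal RNA, a change of 2.07. AT1G48750 went from 421 to 581 in non-polysomal and from 467 to 2009.9 in polysomal RNA, a change of 1.64. The other loci past 2-fold, AT3G18280 at 1.35 and AT1G62510 at 1.12, were not chosen by the rule for named genes but to complete the count. The family was divided, since AT5G55450 was at -0.67 and AT1G62790 at -0.58, and the abundant members AT2G45180 and AT2G10940 at 0.25 and -0.09.

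The 9 measured loci of the list of other dehydration, cold and abscisic acid (ABA) responses had a median change of 0.93. In that list 4 were 2-fold higher, against 2.81% of named loci, 0 were 2-fold lower, 8 were above 0 and 1 below. Hybridization control scaling left 3 of them 2-fold higher. With no filter 4 of 11 loci of the list were 2-fold higher. Every one of the 9 was at least 2-fold higher under dehydration in each fraction, and for 8 of them the difference was larger in polysomal RNA. The shares of named loci were 5.92% in polysomal and 3.7% in non-polysomal RNA. The list is of genes that respond to dehydration and was chosen with earlier results of these data known. Nothing is therefore read from the 9 rises beside these shares. SAG29, a SWEET family sugar exporter of senescing and drying tissue, went from 459 to 7700.1 in non-polysomal and from 100.4 to 6333 in polysomal RNA. Its ratio was -2.19 without stress and -0.28 under dehydration, so the transcript was still slightly lower in polysomal RNA after a change of 1.91. HIS1-3, a drought-induced variant of linker histone H1, went from 439 to 1390.3 in non-polysomal and from 189 to 1959 in polysomal RNA, a change of 1.71. XERICO, a RING protein that raises ABA levels, went from 2023 to 4803 in non-polysomal and from 984 to 5883 in polysomal RNA, a change of 1.33. AT5G50360 had signals of 178 (non-polysomal) and 20.5 (polysomal) without stress, and 1066 and 2465 under dehydration, a change of at least 2.56. The single member below 0 was ORA47, an ERF family regulator of stress hormone synthesis, which went from 349 to 3004 in non-polysomal and from 294 to 1869 in polysomal RNA, a change of -0.44.

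The other loci among the 20 highest came from several families. EXLB1, an expansin-like protein of the cell wall, had signals of 356 (non-polysomal) and 153 (polysomal) without stress, and 559 and 2345 under dehydration and a change of 3.29, while the 10 measured expansins and xyloglucan endotransglucosylase/hydrolases had a median of -0.02 with 5 above and 5 below 0. AT1G64890 had signals of 421 (non-polysomal) and 164 (polysomal) without stress, and 399 and 1284 under dehydration, a change of 3.05, with the non-polysomal signal level. ZW9 changed by 2.47, AT1G16850 by at least 2.34, AT5G37540 by 2.04 and AT5G01300 by 1.95. ETFBETA, the beta subunit of the mitochondrial electron transfer flavoprotein that takes electrons from branched-chain amino acid breakdown, went from 368 to 215 in non-polysomal and from 456 to 989 in polysomal RNA, a change of 1.89. The remaining loci, AT2G07739 (2.60), AT2G07721 (1.87) and AT1G32840 (at least 2.58), stayed more than 2-fold poor in polysomal RNA under dehydration with equal trimmed means.

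All 20 of the highest loci had a higher polysomal signal under dehydration, 19 of them by 2-fold or more, against 49.2% of named loci above 0. Their non-polysomal signal was higher in 14 and lower in 6, with 10 at 2-fold or more, against 48.9% and 51.1% of named loci. With equal trimmed means the ratio without stress was 2-fold or more below 0 in 15 of the 20, and 7 of the 20 values are lower bounds. These loci were chosen by the difference of the movements in the fractions, so nothing is read from their counts beside the shares of all loci.

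**Figure D2:**
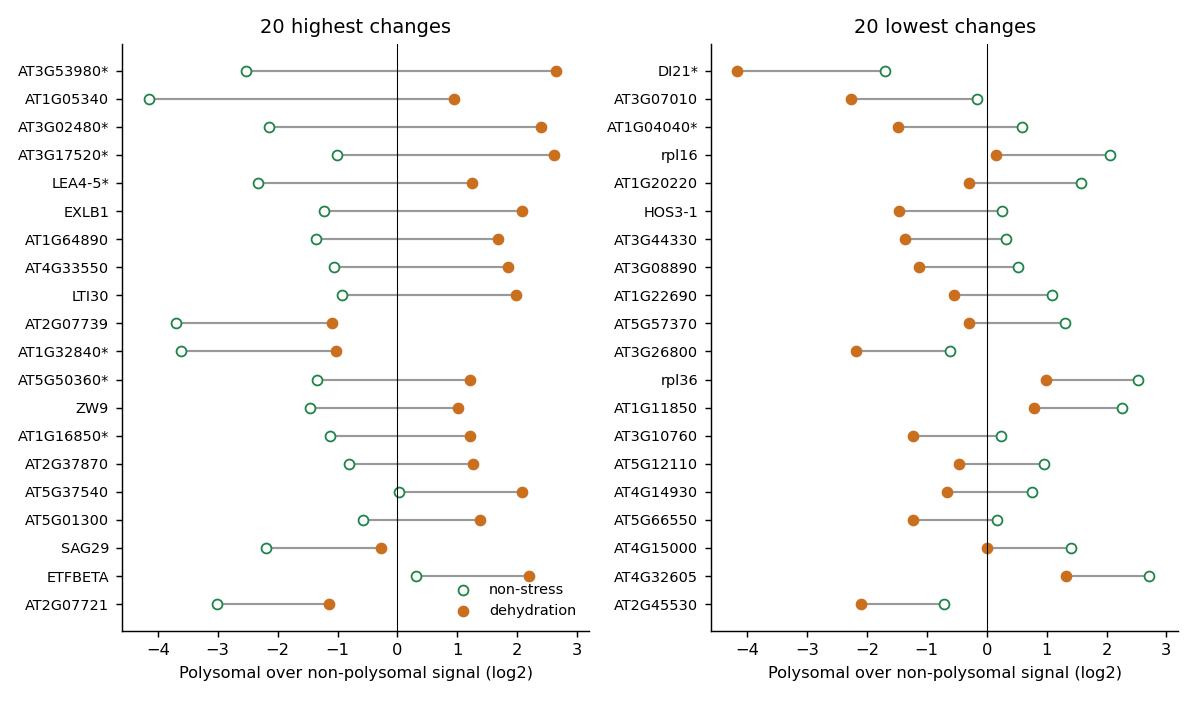
Log2 ratio of polysomal to non-polysomal signal without stress (open circles) and under dehydration (filled circles) for the 20 named loci with the highest and the 20 with the lowest change, with a line joining the circles of a locus and 1 array per group. An asterisk marks a value that is only a bound. In 15 of the loci at left the open circle lies at -1 or lower, and at right 15 of the filled circles lie below 0.

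The lowest 20 loci ran from -2.48, the bound of DI21, to -1.39. AT3G07010, of the pectate lyase family that cuts pectin in the cell wall, had signals of 718 (non-polysomal) and 645 (polysomal) without stress, and 528 and 109.9 under dehydration and a change of -2.11. AT1G04040, of the acid phosphatase family, had signals of 579 (non-polysomal) and 869 (polysomal) without stress, and 195 and 10.9 under dehydration. With the limit used its change of -2.06 is at least that large in size, because the dehydration polysomal signal lay under that limit. Over the alternative settings its smallest size was -1.10. In both the low array was the polysomal one of dehydrated material.

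AT1G22690, of the gibberellin-regulated GASA family of small cysteine-rich proteins, was far lower in both fractions and went from 919.8 to 170.2 in non-polysomal and from 1949 to 116 in polysomal RNA, a change of -1.63. AT1G11850 went from 471 to 126 in non-polysomal and from 2244 to 217 in polysomal RNA, a change of -1.47. HOS3-1, related to fatty acid elongases, went from 285 to 256 in non-polysomal and from 341 to 92.6 in polysomal RNA, a change of -1.73. AT1G20220 differed from these: it went from 156 to 396 in non-polysomal and from 464 to 321 in polysomal RNA, with the larger movement in non-polysomal RNA and a change of -1.87.

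The other loci of this group were AT3G44330 at -1.69, AT3G08890 at -1.65, AT5G57370 at -1.60, AT3G26800 at -1.57 and AT3G10760 at -1.46. AT4G14930 was at -1.41, AT5G66550 at -1.41, AT4G32605 at -1.39 and AT2G45530 at -1.39. Of the lowest 20, 18 had a lower polysomal signal under dehydration, against 50.8% of named loci, 11 of them by 2-fold or more, and 13 had a higher non-polysomal signal. The selection by the lowest change favours such movements, and nothing is read from these counts either. A further 4 belonged to the translation apparatus: the plastid ribosomal genes rpl16 and rpl36, the 60S ribosomal protein gene AT4G15000 and the elongation factor gene AT5G12110.

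Transcripts of the cytosolic ribosome had a lower polysome ratio under dehydration almost throughout. Of 112 measured loci for its proteins 105 were below 0, 7 above, 9 were 2-fold lower and 0 were 2-fold higher, with a median of -0.59 and quartiles of -0.74 and -0.35. Of all named loci 49.5% were below 0 and 1.79% 2-fold lower. The 9 became 7 with quantile normalization, 13 with median scaling and 45 with hybridization control scaling, where 471 of all 5978 loci were 2-fold lower. The median over all measured loci was 0.005. In polysomal RNA 101 of the 112 were lower under dehydration, with a median of -0.55, and in non-polysomal RNA 62 were higher, with a median of 0.05. The median ratio went from 0.14 to -0.46.

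The proteins of the small 40S subunit, which reads the messenger, had a median of -0.53 over 40 loci, with 38 below 0 and 4 2-fold lower. AT4G39200, which encodes eS25, had signals of 3824 (non-polysomal) and 3381 (polysomal) without stress, and 3666 and 1240.2 under dehydration and a change of -1.39. The genes for eS4, AT2G17360 and AT5G07090, were at -1.32 and -1.32, and AT2G36160, which encodes uS11, was at -1.16. In all 4 the polysomal signal was lower and the non-polysomal one higher or nearly level under dehydration.

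The proteins of the large 60S subunit, which joins amino acids, had a median of -0.62 over 62 loci, with 57 below 0 and 4 2-fold lower. AT4G15000, which encodes eL27, had signals of 1229.5 (non-polysomal) and 3263 (polysomal) without stress, and 1679 and 1689 under dehydration, a change of -1.40. AT1G18540 (eL6) was at -1.17, AT2G37190 (uL11) at -1.11 and AT1G27400 (uL22) at -1.06. The acidic stalk proteins, which recruit the elongation factors to the large subunit, had a median of -0.49 over 10 loci with all 10 below 0, and AT3G44590 was 2-fold lower at -1.30, with AT5G47700 at -0.81, AT4G00810 at -0.71 and AT4G25890 at -0.50.

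Exceptions to the direction were few. AT5G39850 (uS4), picked after the values were seen, went from 1279.9 to 1309 in non-polysomal and from 1617 to 2992 in polysomal RNA, a change of 0.86, and AT3G02190 (eL39) was at 0.69. Ribosomal protein genes come in near-identical copies, so the share of each copy in a probe set's signal is uncertain. Ribosomal protein transcripts are also bright, and the brightest of 4 equal groups of measured probe sets had a median change of -0.10. With the filter moved up to percentile 75 the 103 ribosomal loci left had a median of -0.60, against -0.04 over the 2765 loci left.

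Other parts of the translation apparatus divided. The beta subunit genes of the elongation factor eEF1B, AT5G12110 and AT5G19510, were at -1.43 and -0.92. The 17 initiation factor loci had a median of -0.18 with 11 below and 6 above 0 and none past 2-fold, the lowest being AT2G34970 (an eIF2B subunit) at -0.83, AT4G20980 (an eIF3 subunit) at -0.76, AT2G40290 (eIF2 alpha) at -0.70 and AT3G02200 at -0.65. Nuclear genes for ribosomal proteins of plastids and mitochondria had a median of -0.53 over 8 loci with 7 below 0, AT4G17560 at -0.86, AT5G65220 at -0.83, AT5G47190 at -0.70 and AT1G64510 at -0.54. The 6 ribosome biogenesis loci had a median of -0.02, from -1.03 in AT1G52930, the 1 past 2-fold, through AT3G05060 at -0.95, AT3G15460 at -0.06 and AT3G12860 at 0.03, up to 0.95.

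**Figure D3:**
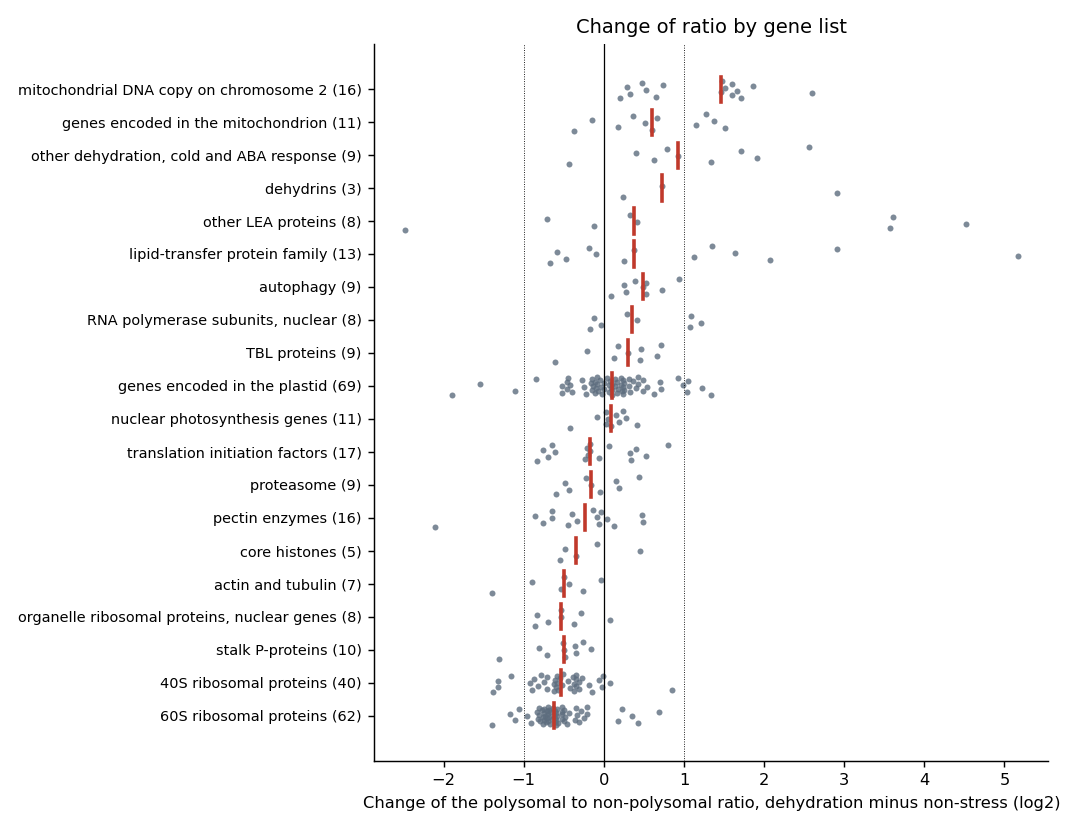
Change of ratio (log2, horizontal axis) for each measured locus of 20 gene lists, with the number of loci in parentheses, the list median as a red bar and dotted lines at 2-fold. The ribosomal lists lie at -0.49 to -0.62 and the mitochondrial and dehydration response lists at 0.61 to 1.47. Under hybridization control scaling the medians of RNA polymerase subunits, TBL proteins, plastid genes and nuclear photosynthesis genes were below 0.

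The lists of cytoskeleton genes, pectin enzymes and core histones had medians below 0. Of all named loci 49.5% were below 0 and 1.79% 2-fold lower. With no filter the medians were nearer to 0 for pectin enzymes, at -0.11, and for core histones, at -0.04. Quantile normalization gave -0.13 for pectin enzymes. All 7 measured actin and tubulin genes, which build the cytoskeleton, were below 0, with a median of -0.50. ACT11, an actin of reproductive tissue, had signals of 274 (non-polysomal) and 627 (polysomal) without stress, and 135 and 118 under dehydration and a change of -1.39, the only 1 past 2-fold. TUB7, TUB6 and TUA1 were at -0.89, -0.53 and -0.50. Of 16 pectin enzymes 12 were below 0, with a median of -0.24, 1 past 2-fold, and AT1G04680, AT5G48900 and AT5G63180 at -0.86, -0.76 and -0.65. Pectin enzyme transcripts were lower under dehydration in each fraction, 14 of 16 in polysomal and 14 of 16 in non-polysomal RNA. Of all named loci 50.8% were lower in polysomal and 51.1% in non-polysomal RNA. The expansin EXPA8 went from 1360.3 to 296 in non-polysomal and from 2001 to 199.6 in polysomal RNA, a change of -1.12, EXPB3 was at -0.72, EXPA9 at -0.21 and XTH32 at -0.05. The core histones had a median of -0.34 over 5 loci, with HTB1 at -0.55, HTB11 at -0.49, AT2G37470 at -0.34 and AT2G28720 at -0.08.

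Autophagy genes, whose products enclose and recycle cell contents, were on the high side. All 9 measured members were above 0, against 50.5% of named loci, with a median of 0.49 and none past 2-fold. With median scaling or quantile normalization 8 were above 0, and with hybridization control scaling 6. APG8A had signals of 491 (non-polysomal) and 597 (polysomal) without stress, and 544 and 1271 under dehydration and a change of 0.94. ATG8F went from 2293 to 2138 in non-polysomal and from 2901 to 4476 in polysomal RNA, a change of 0.73, and ATG8E and ATG3 were each at 0.53. Most of these genes code for the ubiquitin-like ATG8 proteins, and ATG3 is the enzyme that joins ATG8 to a lipid. In 4 of 9 the polysomal signal was 2-fold higher, against 5.92% of named loci, and in none was the non-polysomal one, against 3.7%. The non-polysomal signal was nevertheless higher under dehydration in 7 of the 9, with a median effect of 0.54, against 0.92 in polysomal RNA.

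Of the 8 nuclear RNA polymerase subunits 3 were 2-fold higher, against 2.81% of named loci, and the median was 0.35, or -0.02 under hybridization control scaling. The count of 3 became 1 with median scaling, 1 with quantile normalization and 0 with hybridization control scaling. NRPA1, the largest subunit of RNA polymerase I, went from 484 to 335 in non-polysomal and from 389 to 568 in polysomal RNA, a change of 1.08. NRPC2, of RNA polymerase III, went from 283 to 308 in non-polysomal and from 128 to 297 in polysomal RNA, a change of 1.09. NRPB9B, of RNA polymerase II, went from 324 to 166 in non-polysomal and from 318 to 376 in polysomal RNA, a change of 1.21, and NRPB12 was at 0.41. The signals of the 3 past 2-fold were low, and their changes were less than 3 times the SD between probe sets of a locus, 0.598.

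Transcription factors and signalling genes had few named probe sets. Of 8 bZIP factors 1 was 2-fold higher, against 2.81% of named loci. It was BZIP28 at 1.01, a membrane-held factor of the stress response of the endoplasmic reticulum, named to complete the count. With median scaling, quantile normalization or hybridization control scaling 0 bZIP factors were 2-fold higher. The lowest were bZIP52 at -0.61, bZIP19 at -0.35, BZIP60 at -0.09 and BZIP53 at -0.08. PHV, a homeobox factor of leaf polarity, went from 456 to 291 in non-polysomal and from 116 to 209 in polysomal RNA, a change of 1.504, while HAT2 was at 0.04. The other single values were WRKY20 at 0.26, NAC014 at 0.62, the clock gene GI at 0.79, the kinase ATMPK8 at -0.08, the auxin response genes IAA29 and IAA18 at 0.20 and 0.38, and bHLH104, bHLH34 and bHLH115 at 0.04, 0.38 and 0.57. Of 6 MADS factors 4 were below 0, against 49.5% of named loci, with a median of -0.22. The 4 were AGL65 at -0.66, AGL87 at -0.41, AGL26 at -0.23 and AGL16 at -0.21. The Hsp70 chaperone genes Hsp70-2 and AT3G09440 were at 0.31 and 0.32.

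Enzyme and transport families lay nearer to 0. The 10 serine carboxypeptidase-like loci had a median of 0.29, with 1 2-fold higher, SCPL49 at 1.06, and 2 2-fold lower, scpl50 at -1.28 and scpl25 at -1.07, both added to complete the count, and with scpl48, scpl26 and scpl42 at 0.62, 0.59 and 0.49. Median scaling, quantile normalization and hybridization control scaling each left 0 of these loci 2-fold higher and 2 2-fold lower. The shares of 2-fold changes over named loci with equal trimmed means were 2.81% and 1.79%. The 8 aldehyde dehydrogenases had a median of 0.21, led by ALDH22A1 at 1.28, ALDH6B2 at 0.72, ALDH7B4 at 0.63 and ALDH2C4 at 0.26. TBL proteins, which acetylate wall polysaccharides, had a median of 0.30 over 9 loci, with TBL23 at 0.72, TBL16 at 0.66, TBL28 at 0.47 and TBL35 at 0.45. Under hybridization control scaling these medians were -0.08, -0.16 and -0.07. The 15 UDP-glycosyltransferases had a median of -0.06, with UGT78D1, a flavonol rhamnosyltransferase, at -1.06, UGT78D2 at -0.40, UGT71C4 at -0.37 and UGT72E1 at -0.19.

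The other sugar exporters SWEET4, SWEET13 and SWEET11 were at 0.79, 0.21 and 0.09. Of the 5 U-box ubiquitin ligases PUB19, which is induced by drought, went from 435 to 3322 in non-polysomal and from 250.2 to 3305 in polysomal RNA, a change of 0.79. PUB49, added to complete a count of 1 past 2-fold on the low side, was at -1.14, and 1.79% of named loci were 2-fold lower. Loci with a conserved reading frame upstream of the main one, which can hold back translation of the main frame, had a median of 0.06 over 11 loci with none past 2-fold. They included AT1G70780 at 0.84, the S-adenosylmethionine decarboxylase genes AT3G25570 and AT5G15950 at 0.58 and 0.34, and AT1G73600 at 0.28. The 9 proteasome loci had a median of -0.15 (AT5G45620 -0.59, AT5G23540 -0.49, AT1G79210 -0.43, AT1G45000 -0.23) and the 11 nuclear photosynthesis loci one of 0.09, with PSBY at 0.42, PSAN at 0.28, RCA at 0.23 and PSAE-1 at 0.19. Neither held a 2-fold change.

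A further 8 lists held no 2-fold change. Their medians were 0.06 for 19 ubiquitin-conjugating enzymes and proteases (led by UBC30 at 0.71), 0.19 for 7 cytochromes P450 (CYP71B5 at 0.69) and 0.12 for 7 proteins of vesicle traffic (VPS22 at 0.43). The medians of these 3 lists were below 0 under hybridization control scaling. They were -0.16 for 5 glutathione transferases (GSTU27 at -0.58), -0.01 for 6 beta-glucosidases (BGLU42 at -0.63) and -0.13 for 7 calmodulin-binding IQ-domain proteins (IQD24 at -0.23). The PRA1 family of membrane traffic had a median of -0.03 over 8 loci (PRA1.E at -0.67) and the RNA-binding LSM proteins 0.02 over 5 (LSM3B at 0.55).

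Transcripts of the mitochondrion were poor in polysomal RNA and became less so. Mitochondrial messengers are read by the organelle's own ribosomes. The 11 measured loci had a median ratio of -2.06 without stress and -1.45 under dehydration, and a median change of 0.61, with 9 above 0 and 4 2-fold higher. Over named loci 50.5% were above 0 and 2.81% 2-fold higher. Hybridization control scaling gave 7 of the 11 above 0 and 2 2-fold higher. The gene ccb206, for a cytochrome c assembly protein, went from 863 to 627 in non-polysomal and from 154 to 320.4 in polysomal RNA, a change of 1.52. Genes for subunits of NADH dehydrogenase were at 1.38 (nad6), 1.28 (nad4L) and 1.15 (nad1), but nad4 was at -0.37. A stretch of chromosome 2 is a copy of mitochondrial DNA, and its 16 measured loci were all above 0 with 9 2-fold higher and a median of 1.47, while 13 were above 0 under hybridization control scaling. The median was 1.06 over 15 loci with the limit at percentile 40, 0.48 over 33 loci with no filter (23 above and 3 below 0) and 0.65 over the 3 loci whose probe sets have no suffix. Of these 16 probe sets 13 have a suffix in their name, which means that their probes also match other transcripts, so signal from the mitochondrial genome and from the copy cannot be told apart. AT2G07739 had signals of 3331 (non-polysomal) and 256 (polysomal) without stress, and 2484 and 1161 under dehydration, AT2G07722 was at 1.66 and AT2G07678 at 1.71. In 14 of the 16 the polysomal signal was higher and in 14 the non-polysomal signal was lower under dehydration.

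The plastid genome was more even but held a run of neighbours with low values. Of its 69 measured genes 42 were above 0 and 27 below, 4 were 2-fold higher and 3 2-fold lower, with a median of 0.10 that became -0.28 under hybridization control scaling. The shares of 2-fold changes over named loci were 2.81% and 1.79%. The plastid counts were 2 and 3 with median scaling, 6 and 2 with quantile normalization, and 0 and 4 with hybridization control scaling. The ribosomal protein gene rps14 went from 5959 to 4195 in non-polysomal and from 2063 to 3671 in polysomal RNA, a change of 1.34, and rpoB, for a subunit of the plastid's RNA polymerase, went from 7953 to 5935 in non-polysomal and from 3024 to 5283 in polysomal RNA, a change of 1.23. The cytochrome b6f genes petD and petN were at 1.05 and 1.04. In each of the 4 the non-polysomal signal was lower and the polysomal one higher under dehydration.

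The 6 ribosomal protein genes that follow rpoA in the order of the gene table, rpl36, rpl14, rpl16, rps3, rpl22 and rps19, belong to 1 cluster of jointly transcribed genes and were singled out after their values were seen. All 6 were below 0 with a median of -0.68 (5 of 6 after quantile normalization, where the highest was at 0.018), while of the other 63 plastid genes 42 were above 0 and the median was 0.14. For rpl16 the signals were 1052 (non-polysomal) and 4356 (polysomal) without stress, and 1332 and 1478 under dehydration, a change of -1.90, and for rpl36 they were 2133 (non-polysomal) and 12343 (polysomal) without stress, and 3785 and 7501 under dehydration, a change of -1.55. The values of rpl14, rps19, rpl22 and rps3 were -0.85, -0.52, -0.43 and -0.13. With equal trimmed means all 6 were at least 2-fold higher in polysomal RNA without stress, as was only 1 of the other 63, atpF. That gene was also the third plastid gene past 2-fold on the low side at -1.11. The polysomal signal was lower under dehydration in all 6. The gene rpoA, beside them, was at 0.0022.

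**Figure D4:**
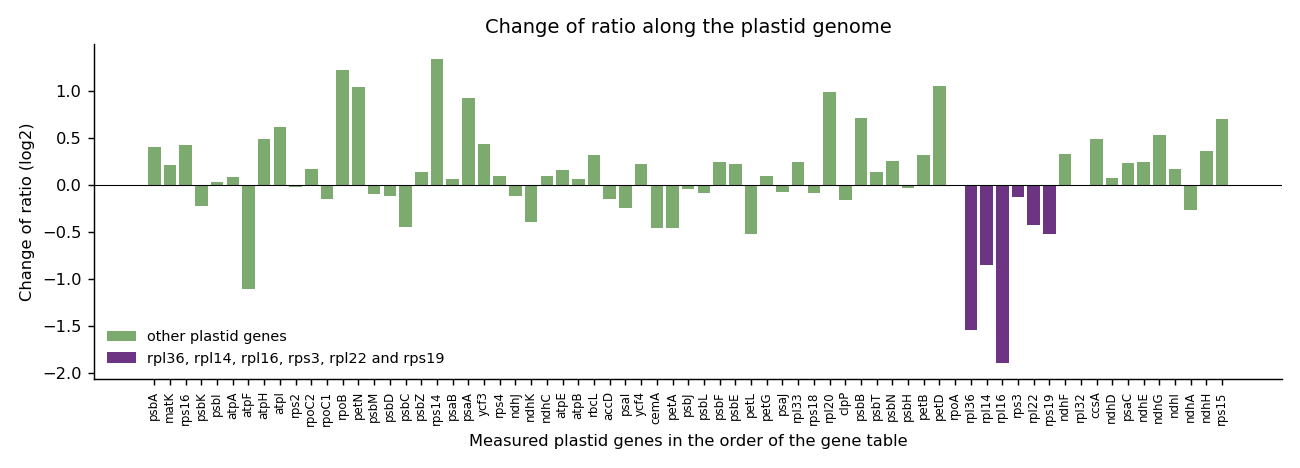
Change of ratio (log2, vertical axis) for the 69 measured plastid genes in the order of the gene table, 1 bar per gene, from 1 array per group. The purple bars of rpl36 to rps19 are all below 0 (5 of 6 after quantile normalization), while 42 of the 63 green bars are above. Under hybridization control scaling every bar would be lower by 0.37.

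Probe sets with a suffix for shared probes made up 10.4% of the high side and 2.17% of the low side, against 3.88% of measured probe sets. Mean signal is formed from the same 4 signals as the change and set the filter, so it is no independent property. Over 4 equal groups of measured probe sets by mean signal, from dim to bright, 4.61%, 2.99%, 1.86% and 1.72% were 2-fold higher and 2.36%, 1.34%, 1.2% and 1.58% 2-fold lower. The median change over these groups went from 0.088 through 0.051 and 0.03 to -0.10. The part of brightness in the results was not tested. Over the 5 nuclear chromosomes 2.11% to 3.71% of loci were 2-fold higher and 1.52% to 1.85% 2-fold lower, and chromosome 2, with the mitochondrial copy, had the 3.71%.

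The balance of the sides depended on the scaling. Of the 2-fold changes 63.3% were on the high side with equal trimmed means, 53.4% after quantile normalization, 41.5% with equal medians and 10.6% with equal signal of the hybridization controls. The 18 hybridization control probe sets, spiked bacterial sequences, themselves had a median change of 0.41, from -0.57 to 0.70, with 16 above 0. Relative to the main scaling the median of all changes moved by -0.11 with equal medians and by -0.37 with the hybridization controls. Under each of the 4 scalings all 20 of the highest and all 20 of the lowest loci kept a change of 2-fold or more, as all lie more than 0.37 past the threshold and scaling to medians or hybridization controls moves every change by nearly the same value. Taken relative to the median of all measured loci, the cytosolic ribosomal proteins had a median of -0.59, -0.59, -0.45 and -0.59 with trimmed means, medians, quantiles and hybridization controls, and the dehydration response list 0.92, 0.92, 0.94 and 0.92.

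**Figure D5:**
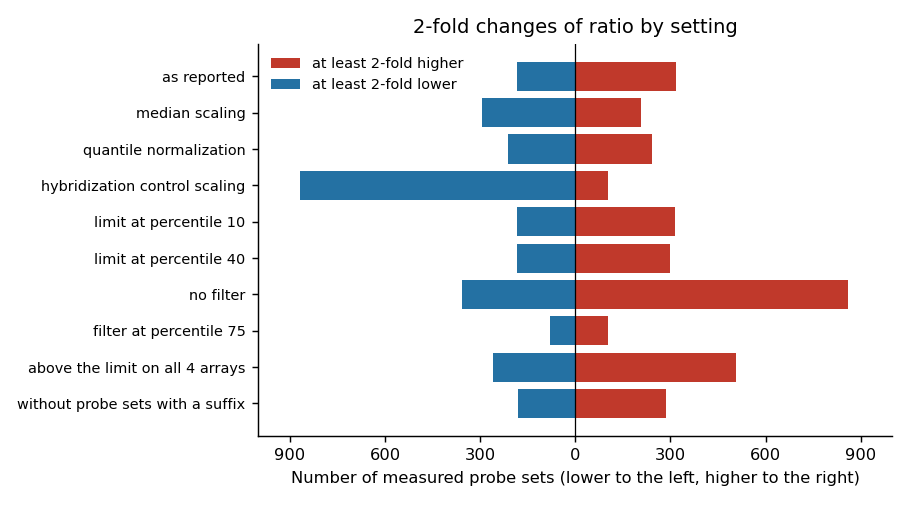
Number of measured probe sets with a change of ratio at least 2-fold higher (to the right) and lower (to the left) under the reported setting and 9 alternatives. The counts are 318 and 184 as reported, 208 and 293 with median scaling, 243 and 212 with quantile normalization, and 103 and 869 with hybridization control scaling.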

How the data were processed

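RNA of Arabidopsis thaliana from a non-polysomal and a polysomal fraction, without stress and under dehydration, was measured on 4 Affymetrix ATH1 arrays, 1 per group, grouped as the titles say. The values deposited by the authors are linear signal intensities, 1 for each probe set, and every array has the same 2% trimmed mean of 500, which shows that the authors had scaled them. The software that summarised the probes was not given in the sources used here. Chip type and hybridization batch were read from the experiment records.

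Signals were brought to equal 2% trimmed means. Those under 69.9, the median over arrays of percentile 25, were raised to it, and log2 was taken. A raised signal gives a bound, written at least or at most, and each bound rests on the limit chosen. Over the alternative settings the smallest values of such loci were 4.20 for AT3G53980, 1.61 for AT1G32840, 1.59 for AT5G50360 and 1.37 for AT1G16850. The change of ratio was computed for 22746 probe sets other than 64 controls, and 11373 with a mean log2 of at least 7.74 were described. With 1 array per group, no test was run, and 2-fold (1 on the log2 scale) was the size counted. Names came from a platform annotation, which can be old: 13513 probe sets had 1 symbol and 503 several, and 13436 were matched to the TAIR10.1 gene table. Measured probe sets without 1 name hold 148 of the 318 higher and 76 of the 184 lower changes.

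The members and the lists were chosen with earlier results of these data known, and list loci were entered partly from general knowledge. Of 56 lists, 37 had at least 5 measured loci, 11 had 1 to 4 and 8 had none. The loci named are the 20 highest and 20 lowest with a signal of at least 139.9 in the brighter fraction of each condition, up to 4 members of each list farthest in the direction of its median, and all members of lists with under 5. Members named outside this rule were chosen after their values were seen. Planned comparisons with protein length, base composition and promoter motifs were not made, since no sequence was used here. The calculation was tested on simulated arrays. Python 3.11.15, numpy 2.4.6, pandas 2.3.3 and matplotlib 3.10.9 were used.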

Additional observations from a re-analysis of the deposited data

Results flagged for a closer look

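For 10 of the named loci the polysome ratio was at least 2-fold below even without stress and at least 2-fold above even under dehydration, so the arrays of the conditions moved in opposite ways. The log2 changes were at least 5.17 for AT3G53980, at least 4.53 for AT3G02480, at least 3.61 for AT3G17520, at least 3.58 for LEA4-5, 3.29 for EXLB1 and 3.05 for AT1G64890. They were 2.91 for AT4G33550, at least 2.56 for AT5G50360, 2.47 for ZW9 and at least 2.34 for AT1G16850. The difference between conditions was not tested, since each group has 1 array. The dehydration arrays form a hybridization batch of their own, so the part of the batch cannot be told apart from that of dehydration. Under the 4 scalings each of the 10 kept a change of 2-fold or more, which their selection nearly fixed in advance. Whether they stayed 2-fold poor without stress and 2-fold rich under dehydration was not checked under another scaling. Some lay close to these limits, with unstressed ratios of -1.004 for AT3G17520 and -1.06 for AT4G33550 and a dehydration ratio of 1.01 for ZW9.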

How the results depend on the processing

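No paired analysis was possible because each group has 1 array. The counts of 318 higher and 184 lower probe sets moved past 1.5 times under these alternatives: 208 and 293 with median scaling, 103 and 869 with hybridization control scaling, 861 and 358 with no filter, 102 and 79 with the filter at percentile 75, and 507 higher with signals above the limit on all 4 arrays. The share on the high side was 41.5% with median scaling and 10.6% with hybridization control scaling. A scaling adds nearly the same value to every change by construction. Under median scaling the list medians were -0.65 (40S), -0.73 (60S), 0.26 (other LEA), 0.26 (lipid-transfer), 0.82 (dehydration response), -0.61 (actin and tubulin), 0.37 (autophagy) and 0.49 (mitochondrion). With hybridization control scaling they were -0.91, -0.99, 0.0015, 0.0033, 0.56, -0.87, 0.11 and 0.23. Quantile normalization gave -0.42 (40S), -0.51 (60S), 0.23 (lipid-transfer) and 0.26 (autophagy). With no filter they were -0.43 (40S), 0 (other LEA), 0.17 (lipid-transfer) and 0.79 (dehydration response). The filter at percentile 75 gave 0.081 (lipid-transfer) and 0.17 (mitochondrion). Signals above the limit on all 4 arrays gave 0.17 (lipid-transfer) and, with the most extreme LEA loci removed by construction, -0.13 for other LEA, -0.15 relative to all loci. Of 37 list medians 14 changed sign between scalings, but 2 when taken relative to all measured loci. Among medians of at least 0.1 in size as reported, those reversed by hybridization control scaling were TBL proteins -0.0693, U-box ligases -0.25, cytochromes P450 -0.19, aldehyde dehydrogenases -0.16, serine carboxypeptidase-like proteins -0.0798, RNA polymerase subunits -0.024 and vesicle traffic -0.25, and 6 smaller ones also turned there: plastid -0.28, nuclear photosynthesis -0.28, SWEET -0.29, ubiquitin-conjugating enzymes and proteases -0.31, upstream reading frames -0.32 and LSM -0.36. Quantile normalization reversed vesicle traffic to -0.051 (-0.0215 relative to all loci). Of 1821 values of named loci over the alternatives 14 moved by more than 0.598, all with the limit at percentile 10 or 40. The filter and suffix settings leave the value of a probe set as it is. Median and hybridization control scaling move it by about -0.11 and -0.37. Most of the 1821 values could therefore not move by 0.598, and nothing is read from the small count. The sign differed in 35 values of 27 loci, all under another scaling and of at most 0.35 in size as reported. The value of AT4G32605 became -0.58 with the limit at percentile 40, under 2-fold, and that of AT3G02480 ran from 3.56 to 6.66. For changes not named here the cause was not tested.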

Other observations

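Probe sets without a name here held some of the widest changes, and 4 are given, chosen after their values were seen. Probe set 247718_at had signals of 4062 (non-polysomal) and 269.7 (polysomal) without stress and of 5061 and 12447 under dehydration, a change of 5.21. Probe set 262128_at had 1676 and 280.1 without stress and 3709 and 12638 under dehydration, a change of 4.35. On the low side 252878_at had 1478 and 1136 without stress and 2245 and 483 under dehydration, a change of -1.84. For 247908_at the signals were 356 and 278 without stress and 382 and 84.2 under dehydration, a change of -1.83. Of the 15 probe sets that went from 2-fold poor to 2-fold rich in polysomal RNA, 5 had no name here.

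Changes of neighbouring genes were set side by side. Over 1207 pairs of measured nuclear neighbours in the gene table Pearson's r was 0.026 and Spearman's rho -0.009, and 1 pair, AT3G27200 and AT3G27210 with 1.02 and 1.25, was 2-fold higher in both. Over 52 pairs of plastid neighbours r was 0.18 and rho 0.11. The pairs share the same 4 arrays and genes are not independent replicates, so these values are descriptions.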
